A study of Mus musculus with 92 samples.

Results

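Quadriceps muscle with a high level of inducible Hsp70 messenger RNA was compared with muscle with a low level. Each of the 92 animals of the series was given a score, the mean of its standardised log2 Hspa1a and Hspa1b values. The 23 highest-scoring animals formed the high group and the 23 lowest formed the low group, so 46 of 92 animals entered the comparison and 46 animals lay between the groups. The members were thus chosen by measured levels of these 2 genes, and no label of the study separates the groups.

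All animals were DOz mice, an outbred stock in which every animal carries its own mixture of alleles. They had eaten standard chow all their lives and were about 18 to 20 weeks of age, and the labels name no treatment, genotype or sex that sets 1 animal apart from another. Polyadenylated RNA of the whole muscle was sequenced from 500 ng of RNA per animal, 1 library each. The study asked about ceramides of very long chain and insulin resistance, and the metabolic measurements of the animals were not analysed here.

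Hsp70 proteins bind stretches of unfolded protein and release them in cycles of ATP hydrolysis. J-domain proteins deliver clients and start hydrolysis, nucleotide exchange factors reopen the chaperone, and Hsp90 with its cofactors takes over part of the clients. Hspa1a and Hspa1b encode the inducible form, which is low in resting muscle and is switched on by heat shock factors after heat, exercise, ischaemia or other proteotoxic stress.

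Hspa1a (ENSMUSG00000091971, chr17:34969190-34972156, minus strand, GRCm38) ranged in the low group from -0.18 through a median of 2.64 to 3.37 on the deposited log2 per-million scale. In the animals between it ran from 3.31 through 5.16 to 6.66, and in the high group from 6.74 through 7.28 to 8.72. Hspa1b (ENSMUSG00000090877, chr17:34956436-34959238, minus strand) ran from 1.23 through 2.65 to 3.30 in the low group, from 3.32 through 5.23 to 6.73 between, and from 6.75 through 7.50 to 8.95 in the high group. The group means differed by 5.32 for Hspa1a, a 39.8-fold difference, and by 5.15 for Hspa1b, a 35.6-fold difference. These values chose the groups and are given as a description, with no test. In whole tissue, fewer cells of a type and less RNA per cell cannot be told apart, here and in all that follows.

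**Figure D1:**
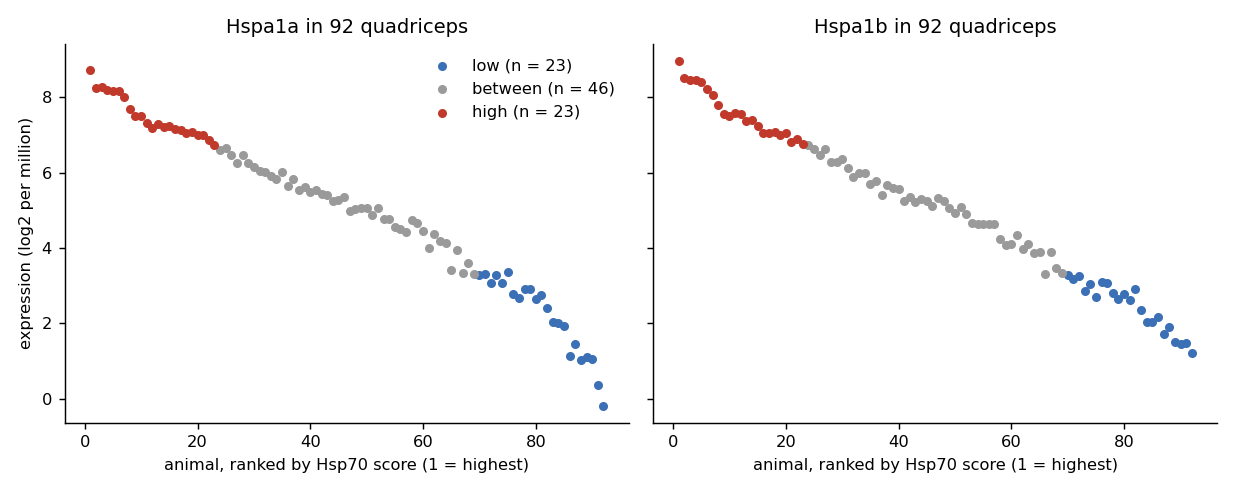
Log2 per-million level of Hspa1a (left) and Hspa1b (right) in each of the 92 quadriceps, ordered along the horizontal axis by Hsp70 score with the highest at rank 1. Colours mark the 23 high, 46 between and 23 low animals, and the levels descend without a visible break at either edge of the middle group.

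The edges of the groups cut a continuous range. The last animal inside the high group had a score of 0.84 with Hspa1a at 6.74 and Hspa1b at 6.75, and the next animal outside it had 0.80, with 6.59 and 6.73. At the lower edge, the animal just outside had a score of -0.83, with 3.31 and 3.35, and the animal just inside had -0.85, with 3.28 and 3.30. The neighbours on each side of an edge thus differed by little.

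The pair could not be measured independently. Of the 31-base words of the longest Hspa1a transcript, 63.8% also occur in Hspa1b, and 67.6% of those of Hspa1b occur in Hspa1a, so reads of the near-identical genes could be split between them in the counting. Within an animal the pair differed by a mean of -0.07 ± 0.33 (SD, n = 92), Hspa1a minus Hspa1b, and Hspa1a was the higher in 37 of 92. Across animals their r was 0.987 and their rho 0.993, a description, since they share sequence and library. Selecting by Hspa1b alone picked the same animals as selecting by both, so its 224 changed genes were bound to be the same. Selecting by Hspa1a alone put the animal with Hspa1a at 3.307 in place of the low animal at 3.37. It kept 92% of the 224 genes.

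The start regions of the pair are near copies too. Bases 210 to 76 before the annotated start are shown because they hold the only exact GAANNTTC in this window of each gene. This is a form of the heat shock element, the sequence that heat shock factors bind, and it is in capitals (RefSeq, GRCm38.p6, minus strand, chr17:34972232-34972366 for Hspa1a and chr17:34959314-34959448 for Hspa1b). Over the 250 bases before the start, the genes differed at 3 positions.
Hspa1a: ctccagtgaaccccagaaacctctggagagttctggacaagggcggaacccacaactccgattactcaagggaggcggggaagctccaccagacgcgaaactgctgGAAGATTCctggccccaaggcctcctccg
Hspa1b: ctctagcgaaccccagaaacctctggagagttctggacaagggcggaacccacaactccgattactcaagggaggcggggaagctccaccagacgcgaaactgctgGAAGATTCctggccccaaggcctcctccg

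The low group was not spread evenly over the series. Sample titles end in a number whose meaning the labels do not give, and the sorted numbers form 5 runs when a gap of over 30 starts a new one. All 11 animals with title numbers 10 to 33 were in the low group, with scores from -2.21 to -0.91. The other 22 animals of the first run held 7 high, 12 between and 3 low animals. The later runs held 4, 6, 5 and 1 high animals and 0, 5, 1 and 3 low ones. Score and title number had r = 0.186 and rho = 0.209 over 92 animals, and r = 0.195 without the 2 farthest title numbers. These values are a description, since the score chose the groups. Over the 81 animals above number 33, r was -0.159.

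**Figure D2:**
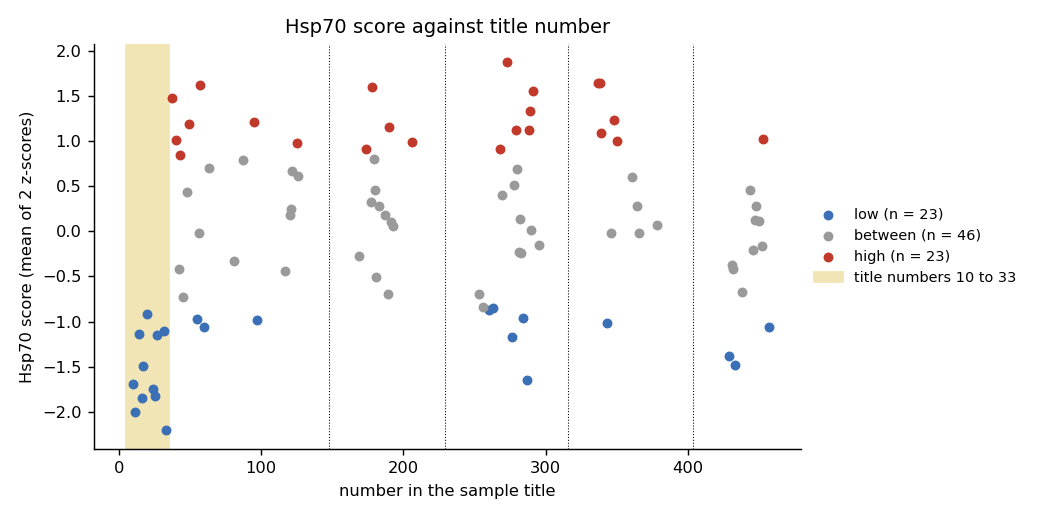
Hsp70 score of each animal (vertical axis, mean of 2 z-scores) against the number in its sample title (horizontal axis), with dotted lines between the 5 runs. All 11 animals in the shaded stretch, numbers 10 to 33, are low, while high animals occur in every run.

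Whether these numbers stand for a cohort, a day or a place in a queue cannot be told from the labels. Within the low group, the first 11 animals had a median Hspa1a of 1.46 and the other 12 had 2.86. The first 11 also had other medians in some genes outside the heat shock response. Other genes had like medians, such as Slc2a4 at 8.675 and 8.7. The next 3 genes were picked as examples, and in each the ranges of the first 11 and the other 12 overlapped. Alas2, a gene of haem synthesis in red cells, had a median of 5.01 against 3.35, the collagen gene Col1a1 had 7.58 against 6.77, and the clock output gene Dbp had 5.69 against 4.60. Changed genes below are therefore also given for the 23 high animals against the 12 low animals with numbers above 33, an alternative chosen after the data had been seen.

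Of 13439 other genes, 224 changed between the groups at an adjusted p under 0.05 (1.67%), 154 of them higher (1.15%) and 70 lower (0.521%) in the high group. Differences are high minus low on the log2 scale with the standard error, and all adjusted p-values are from limma with Benjamini-Hochberg adjustment. The higher genes had a median difference of 0.44 and the lower genes one of -0.45. A difference of at least 1 was reached by 14 of the higher genes and by 0 of the lower ones. Without the 11 animals numbered 10 to 33, 48 genes passed (0.357%), 46 higher and 2 lower, and 47 of the 48 were among the 224. All 224 kept the sign of their difference there.

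Chaperone genes rose in part and none fell. Of 73 measured members of 6 chaperone lists, 27 were higher and 0 lower, which is 36.99% against 1.15% of all genes tested. The median difference of the 73 was 0.11, against -0.002 over all genes tested, and the members ranged from -0.40 for Hspa2 to 1.74 for Hsp90aa1. Without the 11 animals numbered 10 to 33, 11 of the chaperone genes passed. The number higher was 13 with the rule applied anew to the 81 other animals, 14 with 46 against 46, 19 with the run of title numbers or with 3 principal components as covariates, 20 with 8 marker scores, 24 with the immediate-early score and 27 with the clock score.

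**Figure D3:**
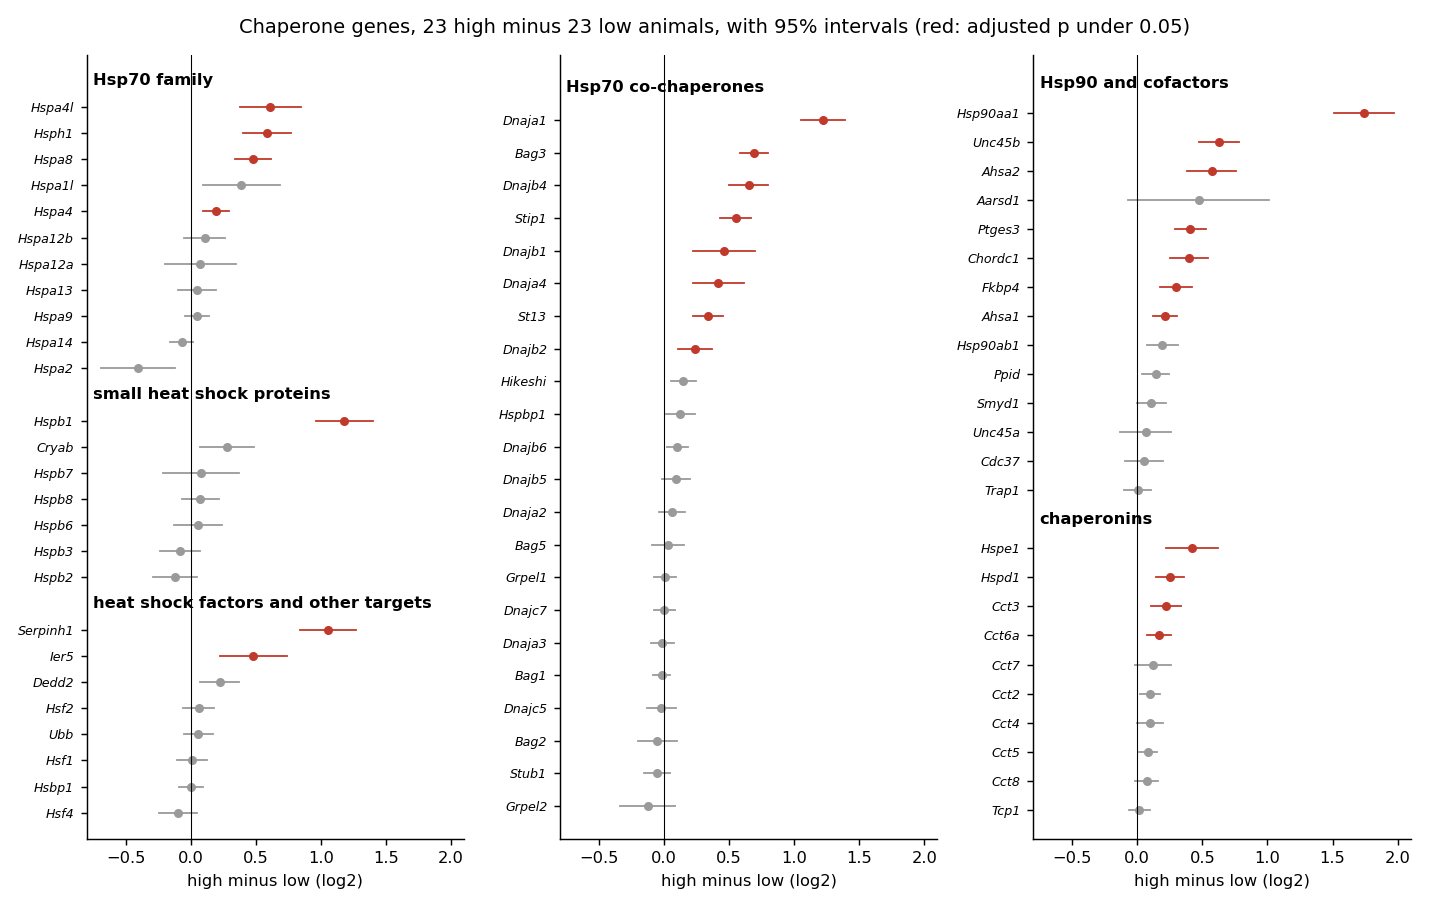
Difference between the 23 high and 23 low animals (horizontal axis, log2, points, with 95% intervals as lines) for 72 of the 73 measured chaperone genes in 6 lists. Red marks the 26 genes shown with an adjusted p under 0.05, led by Hsp90aa1 at 1.74, and no gene is red on the negative side.

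Among Hsp90 and its cofactors, 7 of 14 measured genes rose (50%, against 1.15% of all genes tested). Hsp90aa1, the stress-inducible cytosolic Hsp90, ran from 5.60 through a median of 6.23 to 7.14 in the low group and from 7.42 through 7.88 to 9.11 in the high group. It was the only gene of the 13439 whose groups did not overlap (0.00744%). The difference was 1.74 ± 0.11, 3.34-fold (adjusted p = 7.14e-16), and 1.54 without the 11 animals (adjusted p = 8.09e-10). Within the 4 runs that hold both groups it was between 1.20 and 2.84. One of these runs holds 1 low animal, and another, with the 2.84, holds 1 high animal. The first run holds the 11 animals, and its difference was 1.782 with them and 1.385 without them. The same limits apply to the within-run ranges of the genes below.

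Hsp90ab1, the constitutive Hsp90, had medians of 10.1 in low and 10.3 in high animals and a difference of 0.19 ± 0.06 that did not pass (adjusted p = 0.101). Unc45b, the chaperone that folds the myosin head in striated muscle, rose by 0.63 ± 0.08 (adjusted p = 1.10e-07), and 12 of 23 high animals lay above every low one. Ptges3, the p23 cofactor that stabilises closed Hsp90, rose by 0.41 ± 0.06 (adjusted p = 5.75e-06). Ahsa2 and Ahsa1, activators of the Hsp90 ATPase, rose by 0.57 and 0.21, Chordc1 by 0.40, and the immunophilin Fkbp4 by 0.30. Without the 11 animals, Hsp90aa1, Unc45b and Ptges3 passed, and the other 4 had adjusted p-values from 0.0715 to 0.420. Smyd1, which methylates proteins of the sarcomere and works with Hsp90, stood at 0.11 ± 0.06, and the kinase-loading cofactor Cdc37 at 0.05 ± 0.07.

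Of the co-chaperones that drive the Hsp70 cycle, 8 of 22 rose (36.4%, against 1.15% of all genes tested). Dnaja1, a J-domain protein that starts ATP hydrolysis, ran from 5.15 through 5.62 to 6.22 in the low group and from 6.21 through 6.79 to 7.38 in the high group. The groups met only at their edges, with 22 of 23 high animals above every low one. Its difference was 1.22 ± 0.08, 2.33-fold (adjusted p = 1.32e-15), 1.05 without the 11 animals (adjusted p = 3.40e-09) and between 0.91 and 1.68 within the 4 runs.

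Bag3, the nucleotide exchange factor that pairs Hsp70 with small heat shock proteins at the Z-disc, ran from 6.59 through 6.80 to 7.20 in low and from 7.01 through 7.55 to 7.84 in high muscle. Of the high animals, 21 of 23 were above every low one, and the difference was 0.69 ± 0.05 (adjusted p = 1.10e-13). It was 0.75 without the 11 animals, which as a set had a higher Bag3 median, 6.92, than the other low animals, 6.76. Bag3 thus did not follow the order that Hsp90aa1 had within the low group, where the first 11 had a median of 6.05 and the other 12 one of 6.55.

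Other J-domain genes rose by smaller amounts: Dnajb4 by 0.65 ± 0.07 (adjusted p = 1.15e-08), Dnajb1 by 0.46 ± 0.12 (adjusted p = 0.0253), Dnaja4 by 0.42 ± 0.10 (adjusted p = 0.0108) and Dnajb2 by 0.24 ± 0.06 (adjusted p = 0.0344). Stip1, which hands clients from Hsp70 to Hsp90, rose by 0.55 ± 0.06 (adjusted p = 6.46e-09), and St13, which slows the release of clients from Hsp70, by 0.34 ± 0.06 (adjusted p = 2.02e-04). Dnaja1, Bag3, Dnajb4 and Stip1 passed without the 11 animals, and the other 4 did not (adjusted p from 0.256 to 0.767). The ubiquitin ligase Stub1 was at -0.05 ± 0.05, Bag1 at -0.02 ± 0.03, and the mitochondrial exchange factor Grpel1 at 0.01 ± 0.04, none past the threshold. Hikeshi, which carries Hsp70 into the nucleus, stood at 0.15 ± 0.05 (adjusted p = 0.106).

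In the Hsp70 family itself, 4 of 11 other members rose (36.4%, against 1.15% of all genes tested). Hspa8, the constitutive Hsc70, ran from 9.57 through 10.2 to 10.7 in low and from 10.4 through 10.6 to 11.1 in high muscle, a difference of 0.48 ± 0.07 (adjusted p = 7.58e-06). The groups overlapped, with 9 of 23 high animals above every low one. The other 3 are Hsp110 proteins, exchange factors of Hsp70: Hspa4l rose by 0.61 ± 0.12 (adjusted p = 7.92e-04), Hsph1 by 0.58 ± 0.09 (adjusted p = 3.30e-05) and Hspa4 by 0.20 ± 0.05 (adjusted p = 0.0254). Hspa8 (0.30, adjusted p = 0.0374) and Hsph1 (0.49, adjusted p = 0.0189) passed without the 11 animals, and Hspa4l and Hspa4 did not (adjusted p = 0.199 and 0.501).

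Hspa1l, the neighbour of Hspa1a on the opposite strand, was at 0.39 ± 0.15 (adjusted p = 0.201), and 14.6% of its 31-base words occur in Hspa1a, so part of its value can be reads of that gene. The mitochondrial Hspa9 stood at 0.05 ± 0.05 (adjusted p = 0.753). Hspa2 was lower in the high group by the sign of its mean, -0.40 ± 0.14, and did not pass (adjusted p = 0.159). With the first 3 principal components as covariates it did, at -0.53 (adjusted p = 0.0250).

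Of 7 small heat shock protein genes 1 passed (14.3%, against 1.15% of all genes tested higher). Hspb1, the mouse Hsp27, which holds unfolded proteins in a refoldable state, ran from 5.90 through 6.36 to 7.81 in low and from 7.08 through 7.59 to 8.38 in high muscle. A pair of low animals reached into the range of the high group, and 7 of 23 high animals exceeded every low one. Hspb1 differed by 1.18 ± 0.11, 2.26-fold (adjusted p = 3.75e-11), and by 1.08 without the 11 animals (adjusted p = 4.29e-06). Cryab, alpha B-crystallin, was at 0.28 ± 0.10 (adjusted p = 0.201), and Hspb6, Hspb7 and Hspb8 were at 0.06, 0.08 and 0.07.

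**Figure D4:**
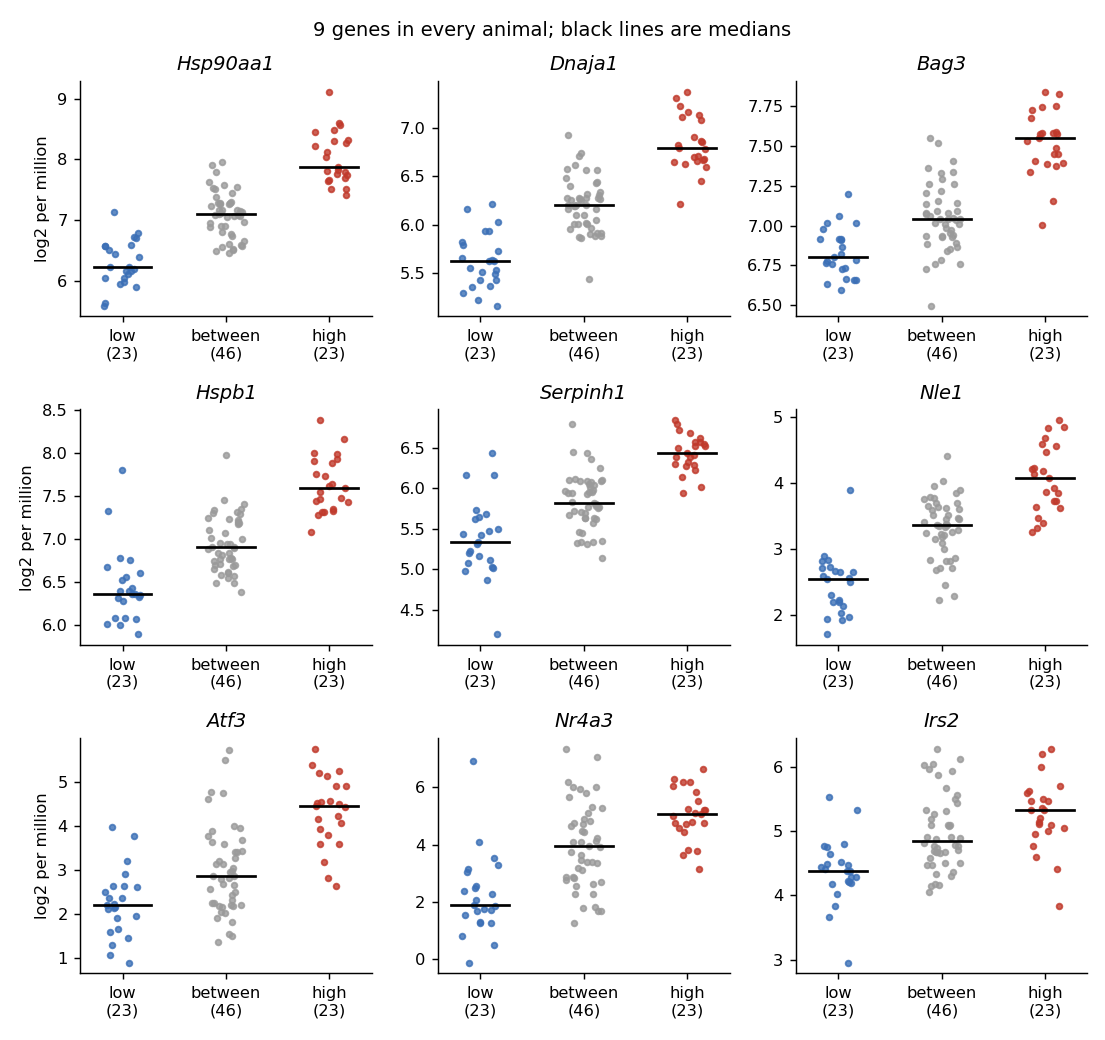
Log2 per-million level (vertical axes) of 9 genes in each animal of the low (23), between (46) and high (23) groups, with black lines at the medians. The low and high points are separate for Hsp90aa1 and overlap for the other 8 genes, and Nr4a3 has 1 low animal, at 6.93, above all high ones.

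Of 10 chaperonin genes, 4 rose (40%, against 1.15% of all genes tested), all by less than 0.5. Hspe1 and Hspd1, the mitochondrial Hsp10 and Hsp60, rose by 0.42 ± 0.10 (adjusted p = 0.0116) and 0.25 ± 0.05 (adjusted p = 0.00368). The cytosolic TRiC subunits Cct3 and Cct6a rose by 0.22 and 0.17, and the other TRiC subunits lay between 0.02 and 0.12 without passing. None of the 4 passed without the 11 animals (adjusted p from 0.296 to 0.623).

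None of the heat shock factor genes passed: Hsf1 was at 0.01 ± 0.06 (adjusted p = 0.969), Hsf2 at 0.06 ± 0.06 and Hsf4 at -0.10 ± 0.07. The list of these factors and other genes known to answer them had 3 of 9 measured members higher (33.3%, against 1.15% of all genes tested). Serpinh1, the collagen chaperone Hsp47 of the endoplasmic reticulum, ran from 4.20 through 5.34 to 6.43 in low and from 5.94 through 6.43 to 6.84 in high muscle. It differed by 1.05 ± 0.11, 2.08-fold (adjusted p = 9.50e-10), and by 0.99 without the 11 animals (adjusted p = 3.68e-05), although 12 of 23 high animals did not exceed the highest low one. Ier5, an immediate early response gene, rose by 0.48 ± 0.13 (adjusted p = 0.0336) and did not pass without the 11 animals (adjusted p = 0.462). In the same list, Dedd2 was at 0.22 ± 0.07 (adjusted p = 0.129), Ubb at 0.06 ± 0.06 (adjusted p = 0.745) and Hsbp1 at 0.003 ± 0.05, none past the threshold.

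Heat shock elements were looked for in the start regions of the changed genes, 250 bases before to 50 after each RefSeq start. A start region was at hand for 10253 of the 13439 genes and not for 3186, and a gene counted once if any of its windows held the motif. The motifs GAANNTTC and TTCNNGAA each read the same on both strands, and their joined forms hold 3 alternating GAA and TTC units with 2 free bases between neighbours. A joined form contains both motifs and was searched on both strands. GAANNTTC was in 6.98% of all start regions, in 18 of 124 genes that rose (14.5%), in 4 of 53 that fell (7.55%) and in 9 of 23 chaperone genes that rose (39.1%). Among 35 chaperone genes that did not pass, 6 held it (17.1%).

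For TTCNNGAA the shares were 8.61% of all, 9.68% of the genes that rose and 3.77% of those that fell. They were 26.1% of the chaperone genes that rose and 8.57% of those that did not pass. A joined form was in 0.634% of all start regions, in 4 of 124 genes that rose and in 0 of 53 that fell. It was in 4 of 23 chaperone genes that rose (17.4%) and in 1 of 35 that did not pass (2.86%). Of these 4 genes, Hspe1 and Hspd1 share the same stretch, and in Chordc1 and Hsph1 the joined form reaches past the start. Over the chaperone genes that rose and the 10 changed genes with the smallest p, 26 of 30 had a start region and 11 of these held an element. The following stretches show how differently the elements lie in genes that rose, with the elements in capitals. Hspe1 and Hspd1 share 1 stretch before both RefSeq starts, chr1:55088044-55088091, read on the plus strand for Hspe1 and on the minus strand for Hspd1, with 3 overlapping elements. Hspb1 (chr5:135887787-135887844, plus strand) has 2 separate elements. Single ones begin 124 bases before the start of Dnaja1 (chr4:40722329-40722366, plus strand) and 151 bases before that of Fkbp4 (chr6:128438785-128438822, minus strand). Starts here are those of RefSeq, and the stretches of Hspd1 and Dnaja1 lie inside the longer gene that GENCODE gives.
Hspe1: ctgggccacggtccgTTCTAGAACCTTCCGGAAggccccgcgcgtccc
Hspd1: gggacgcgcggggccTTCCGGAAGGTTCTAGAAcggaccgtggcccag
Hspb1: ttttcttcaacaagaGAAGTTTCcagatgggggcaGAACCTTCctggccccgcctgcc
Dnaja1: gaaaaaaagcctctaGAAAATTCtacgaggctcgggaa
Fkbp4: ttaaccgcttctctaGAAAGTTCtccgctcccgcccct

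A match of letters is a description and not evidence of binding, and Hsp90aa1, Hspa8 and St13 had no entry in the table of start regions. In these examples Dnaja1, with 1 element, rose by 1.22, and Hspd1, with 3, by 0.25.

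Animals that the comparison had not used gave a separate reading. In the 46 animals between the groups, the slope of each gene on the Hsp70 score passed for 2 genes of 13439 (0.0149%). Both were chaperone genes: Dnaja1 rose by 0.43 per unit of score (adjusted p = 0.00176) and Hsp90aa1 by 0.53 (adjusted p = 0.0195). Serpinh1 had a slope of 0.44 (adjusted p = 0.0888), and Bag3, Hspb1 and Nle1 had slopes of 0.19, 0.29 and 0.34 that did not pass.

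The sign of the slope matched the sign of the group difference for 129 of the 154 genes that rose (83.8%), for 61 of the 70 that fell (87.1%) and for 22 of the 27 chaperone genes (81.5%), against 54.8% of all genes tested. At an unadjusted p under 0.05 (limma), 37 of the 154, 18 of the 70 and 5 of the 27 chaperone genes had a slope of the matching sign. Over all genes tested it was 535 of 13439. Chaperone genes with a slope near 0 or of the other sign included Dnaja4 at -0.07, Dnajb2 at -0.08, Hspe1 at -0.05, Cct3 at -0.001 and Hspa8 at 0.03. Counted per animal, a median of 11 of the 27 chaperone genes lay above the 92-animal median in the animals between, with a range from 2 to 27. In the low group the median was 4 and in the high group 23, counts that rest on the same contrast that called these genes.

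Chaperones of the endoplasmic reticulum also rose, with 9 of 24 genes of the list of endoplasmic reticulum stress higher and 0 lower (37.5% against 1.15%) and a median difference of 0.21. Hspa5, the reticulum's own Hsp70 known as BiP, ran from 7.34 through 7.66 to 8.21 in low and from 7.73 through 8.08 to 8.48 in high muscle. It differed by 0.39 ± 0.07 (adjusted p = 1.12e-04), with 5 of 23 high animals above every low one. Its partner Hyou1 rose by 0.33, the reticulum's Hsp90 Hsp90b1 by 0.30, the disulfide isomerases Pdia4 and Pdia3 by 0.38 and 0.27, and Manf, Creld2, Sdf2l1 and Herpud1 by 0.36, 0.42, 0.46 and 0.22.

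The transcription factors of that response did not pass: Atf4 was at 0.17 ± 0.06 (adjusted p = 0.140), Xbp1 at 0.07 ± 0.07 and Ddit3 at 0.07 ± 0.08. Without the 11 animals numbered 10 to 33, none of the 9 genes passed, with adjusted p-values from 0.0646 for Hspa5 to 0.535. Their differences there were of the same sign, for example 0.30 for Hspa5 and 0.29 for Hyou1.

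Of 31 proteasome genes, which degrade ubiquitinated proteins, 0 rose and 0 fell, where 1.67% of all genes tested changed, at a median of 0.03 and within -0.04 to 0.09, and 0 had an unadjusted p under 0.05. The 8 mitochondrial proteases likewise had 0 passing, with a median of -0.002. Ubqln1, a shuttle of ubiquitinated proteins named after its value was seen, rose by 0.20 ± 0.03 (adjusted p = 1.33e-04), but not without the 11 animals (adjusted p = 0.134). In the atrophy and autophagy list 1 of 15 rose (6.67%, against 1.15% of all genes tested), the autophagosome protein Gabarapl1 at 0.31 ± 0.08 (adjusted p = 0.0294), which did not pass without the 11 animals (adjusted p = 0.640). The muscle ubiquitin ligases Fbxo32 and Trim63 stood at 0.37 ± 0.13 and 0.28 ± 0.16 without passing.

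Some single genes that rose act on collagen, as Serpinh1 does, and no list of such genes was tallied. P4ha1, a subunit of collagen prolyl hydroxylase, ran from 5.25 through 5.92 to 6.48 in low and from 6.25 through 6.58 to 7.09 in high muscle, a difference of 0.67 ± 0.07 (adjusted p = 9.17e-09), with 17 of 23 high animals above every low one. Plod1, a collagen lysyl hydroxylase, rose by 0.44 ± 0.06 (adjusted p = 2.57e-06) and P4ha2 by 0.28 ± 0.08 (adjusted p = 0.0373), the last pair named after their values were seen. P4ha1 and Plod1 passed without the 11 animals (0.54 and 0.46), and P4ha2 did not (adjusted p = 0.501). The collagen genes Col1a1 and Col1a2 were at -0.30 ± 0.15 and -0.31 ± 0.14 and did not pass. Of 8 fibroblast markers 0 passed, where 1.67% of all genes tested changed.

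Outside the chaperone lists, Nr4a3 and Atf3 had larger differences than any chaperone gene. Nr4a3, an orphan nuclear receptor induced by exercise, ran from -0.12 through 1.89 to 6.93 in low and from 3.15 through 5.08 to 6.63 in high muscle. One low animal was above all 23 high ones, and the difference was 2.81 ± 0.34, 7.02-fold (adjusted p = 8.38e-08). It was 2.19 without the 11 animals (adjusted p = 0.00207), and within the 4 runs it was between -1.18, in the run with 1 low animal, and 3.42.

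Atf3, a transcription factor of the general stress response, ran from 0.90 through 2.22 to 3.98 in low and from 2.65 through 4.46 to 5.76 in high muscle, with 16 of 23 high animals above every low one. It differed by 2.08 ± 0.22, 4.22-fold (adjusted p = 4.47e-09), by 1.88 without the 11 animals (adjusted p = 7.77e-05), and by 1.12 to 2.44 within the 4 runs. Nr4a2, a relative of Nr4a3, rose by 1.09 ± 0.18 (adjusted p = 8.93e-05) and by 1.17 without the 11 animals (adjusted p = 0.00405).

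These 3 were the changed members of 26 immediate-early genes (11.5%, against 1.15% of all genes tested higher), whose median difference was 0.12. The classical members did not pass: Fos stood at 0.01 ± 0.30, Egr1 at -0.62 ± 0.29 (adjusted p = 0.336), Junb at -0.25 ± 0.20, and Jun at 0.31 ± 0.10 (adjusted p = 0.140). Nr4a1, named after its value was seen, stood at 0.45 ± 0.14 (adjusted p = 0.108). Of the 26 genes, 20 had a positive difference, against 6606 of 13439 genes tested. An unadjusted p under 0.05 (limma) was reached by 11 of the 26, against 12.6% of all genes tested.

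Nle1 (chr11:82900768-82908411, minus strand), a factor of large ribosomal subunit assembly, ran from 1.71 through 2.55 to 3.89 in low and from 3.26 through 4.07 to 4.96 in high muscle. A single low animal lay above 3, and 13 of 23 high animals exceeded it. The difference was 1.60 ± 0.14, 3.04-fold (adjusted p = 6.98e-12), 1.44 without the 11 animals (adjusted p = 2.21e-06), and between 0.96 and 1.80 within the runs. Nle1 lies 2139 bases from Unc45b on the opposite strand, and Slfn5os, which rose by 0.73 ± 0.18 (adjusted p = 0.0200), overlaps Unc45b on the opposite strand. Whether the counting used strand is not given in the sources used here, so reads of the overlapping genes may not be separable, and Slfn5os did not pass without the 11 animals (adjusted p = 0.333).

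Banp, a nuclear protein that binds CGCG elements, rose by 1.11 ± 0.15 (adjusted p = 1.23e-06), and Mall, a membrane protein of the MAL family, by 0.97 ± 0.14 (adjusted p = 4.35e-06). Both passed without the 11 animals, at 0.85 and 0.89. Mall differed by -0.35 in the last run, which holds 1 high and 3 low animals. The unnamed gene Gm49668 rose by 1.17 ± 0.25 (adjusted p = 0.00452), with wide groups, -0.29 in the run with 1 low animal, and no call without the 11 animals (adjusted p = 0.217).

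In the mechanical stress list 2 of 12 genes rose (16.7%, against 1.15% of all genes tested). Xirp1, the actin-binding Xin protein that appears at sites of muscle damage, ran from 6.06 through 7.13 to 8.61 in low and from 7.42 through 8.30 to 9.88 in high muscle, a difference of 1.21 ± 0.16 (adjusted p = 9.94e-07). Flnc, filamin C of the Z-disc and a client of Bag3, rose by 0.34 ± 0.08 (adjusted p = 0.00976). Outside the list, Abra, an actin-binding protein of striated muscle that was picked for its value, rose by 0.95 ± 0.12 (adjusted p = 1.63e-07). Xirp1 (1.08) and Abra (0.84) passed without the 11 animals, and Flnc did not (adjusted p = 0.385). The stretch sensor Csrp3 stood at 0.74 ± 0.28 (adjusted p = 0.218). Of 9 regeneration and satellite cell genes 0 passed, where 1.67% of all genes tested changed.

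The next 3 genes were picked for their values, and no count of antioxidant genes was made. Srxn1, the antioxidant enzyme sulfiredoxin, ran from 4.09 through 4.41 to 5.19 in low and from 4.53 through 5.26 to 6.49 in high muscle, with 14 of 23 high animals above every low one and a difference of 0.84 ± 0.11 (adjusted p = 8.29e-07). It passed without the 11 animals (0.76, adjusted p = 0.00405). Txnrd1, thioredoxin reductase, rose by 0.36 ± 0.09 and Osgin1 by 0.61 ± 0.13, and these did not pass without the 11 animals (adjusted p = 0.153 and 0.0715). The metallothionein Mt1 was at 0.26 ± 0.35 and the glucocorticoid target Fkbp5 at -0.001 ± 0.21. Of 10 glucocorticoid and metallothionein genes 0 passed, where 1.67% of all genes tested changed.

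In the clock list 3 of 19 rose (15.8%, against 1.15% of all genes tested). Nfil3, a repressor of the clock that also answers other stimuli, ran from 2.83 through 4.83 to 6.22 in low and from 5.08 through 5.85 to 6.55 in high muscle, and the low group was the wider. It rose by 1.21 ± 0.18 (adjusted p = 1.49e-05) and by 0.77 without the 11 animals (adjusted p = 0.0203), and within the 4 runs its difference was between -0.20, in the run with 1 low animal, and 1.43. Bmal1 rose by 0.46 ± 0.12 and Cry1 by 0.35 ± 0.09, neither without the 11 animals (adjusted p = 0.463 and 0.487), while Dbp stood at -0.84 ± 0.24 (adjusted p = 0.0553). The time of day at which muscles were taken is not in the labels, and its part in the result was not tested.

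Of the genes that were lower in the high group, the 12 largest differences ran from -0.99 for Gm11266 to -0.57 for Prom1. Trp53i11, a gene induced by p53, ran from 1.65 through 2.56 to 3.54 in low and from 0.87 through 1.86 to 2.57 in high muscle, a difference of -0.77 ± 0.14 (adjusted p = 4.27e-04). Its low animals numbered 10 to 33 had a median of 2.93 and the other 12 had 2.18. Septin4, a filament-forming GTPase, differed by -0.58 ± 0.11 (adjusted p = 6.38e-04), with 3.50 in the first 11 low animals and 2.90 in the others.

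Mc5r, a melanocortin receptor, differed by -0.67 ± 0.16 (adjusted p = 0.0121) and Adcyap1r1, the receptor of the peptide PACAP, by -0.67 ± 0.14 (adjusted p = 0.00217). Dach1, a developmental transcription factor, differed by -0.73 ± 0.18, Ndufa4l2, a mitochondrial protein induced by hypoxia, by -0.64 ± 0.16, Prom1 by -0.57 ± 0.16 and Plekhh3 by -0.57 ± 0.12. The unnamed genes Gm11266, Gm37759 and Gm17552 differed by -0.99, -0.87 and -0.62. None of the 12 passed in the smaller comparison of 23 against 12 without the 11 animals, where their adjusted p-values ran from 0.163 for Prom1 to 0.584 for Dach1. Their differences there ran from -0.80 for Cybb to -0.34 for Septin4. Prom1 at -0.63 and Cybb were larger than in the full comparison, and Gm11266 at -0.56, Trp53i11 at -0.45 and Dach1 at -0.46 were smaller. Within the 4 runs that hold both groups, Dach1 ran from -0.88 to 1.12 and Gm11266 from -1.11 to 0.85, while Trp53i11 was negative in each. The values of 1.12 and 0.85 are from the run with 1 low animal. The splicing factor Srsf5, named after its value was seen, was at -0.34 ± 0.06 (adjusted p = 1.03e-04) and passed there too (adjusted p = 0.0208).

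**Figure D5:**
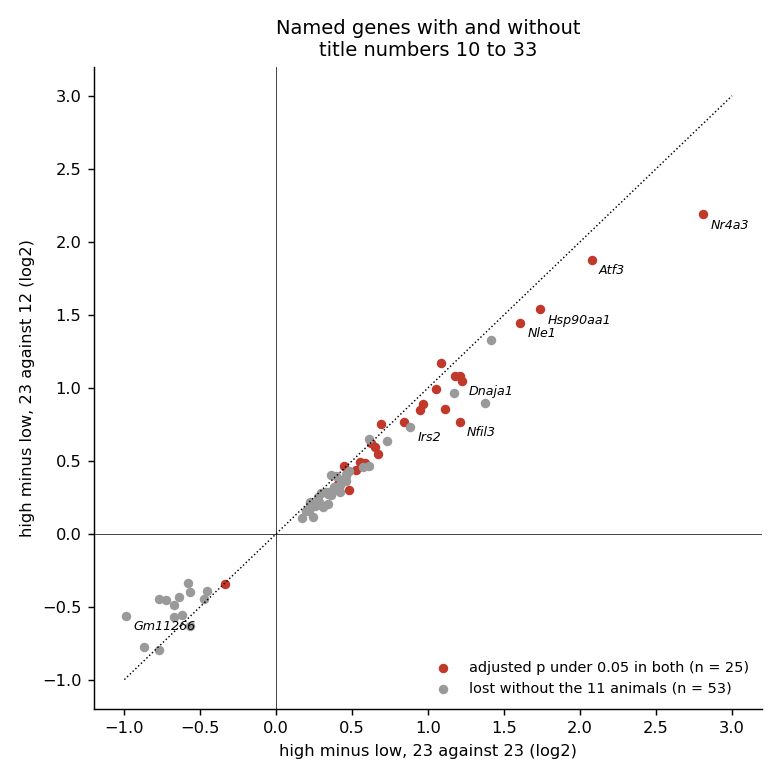
Difference between high and low animals for the 78 named genes that changed, in the full comparison of 23 against 23 (horizontal axis, log2) and without the 11 low animals numbered 10 to 33 (vertical axis, log2, 23 against 12), with a dotted line of equality. All points keep their sign, the 25 genes in red passed in both, and the 53 grey genes, among them all 12 largest falls, passed only in the full comparison.

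Cybb, the membrane subunit of the phagocyte NADPH oxidase, ran from 1.47 through 2.27 to 5.01 in low and from 0.23 through 1.63 to 3.01 in high muscle, a difference of -0.77 ± 0.20 (adjusted p = 0.0288). Macrophage markers stood beside it: 0 of 10 passed, where 1.67% of all genes tested changed. Of these markers, 9 of 10 had a negative difference, their median was -0.24, and Csf1r was at -0.39 ± 0.14 (adjusted p = 0.152). The macrophage score ran from -0.96 to 3.14 in low and from -1.25 to 1.13 in high animals. With 8 marker scores as covariates, Cybb differed by -0.52 (adjusted p = 0.00694). It was at -0.80 without the 11 animals (adjusted p = 0.309).

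Markers of fibre types and other cells passed in few cases, as did all genes tested, of which 1.67% changed. Fast myosin Myh4, the defining gene of this mostly fast muscle, had medians of 15.83 in low and 15.97 in high animals. The fast fibre markers had 0 of 10 genes passing, with Myh4 at 0.10 ± 0.09, and the slow fibre markers had 0 of 10 passing with a median of 0.43 and Myh7 at 0.74 ± 0.55. Adipocyte, smooth muscle, fibroblast and blood markers had 0 passing, and all 5 blood markers had negative differences with a median of -0.53. Cldn5, an endothelial tight junction gene, was lower by 0.46 ± 0.12 (1 of 8 endothelial markers, 12.5% against 0.521% of all genes tested lower), but not past the threshold without the 11 animals (adjusted p = 0.347). Of 14 library measures, among them the summed expression, the share of mitochondrial mRNA and 10 marker scores, 0 differed (smallest adjusted permutation p = 0.520).

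Insulin signalling had 1 of 20 genes changed, 5% against 1.67% of all genes tested, a difference of less than 1 gene. Irs2, the insulin receptor substrate that is itself regulated by insulin and fasting, ran from 2.95 through 4.38 to 5.54 in low and from 3.84 through 5.33 to 6.28 in high muscle. It rose by 0.88 ± 0.15, 1.84-fold (adjusted p = 2.00e-04), with 6 of 23 high animals above every low one. The difference was 0.73 without the 11 animals (adjusted p = 0.0650). Irs1 stood at 0.52 ± 0.16 (adjusted p = 0.0736), the insulin receptor Insr at 0.03 ± 0.07 and the glucose transporter Slc2a4 at 0.02 ± 0.05.

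In ceramide metabolism 1 of 37 genes changed (2.70%), near the 1.67% of all genes tested. Hacd4, a dehydratase of fatty acid elongation, ran from 1.47 through 2.04 to 3.17 in low and from 0.91 through 1.70 to 2.13 in high muscle, a difference of -0.48 ± 0.10 (adjusted p = 0.00470) that did not pass without the 11 animals (-0.45, adjusted p = 0.183). The ceramide synthase of very long chains, Cers2, was at -0.13 ± 0.07 (adjusted p = 0.448), and that of the C18 form, Cers1, at -0.09 ± 0.10 (adjusted p = 0.784). The median of the 37 genes was 0.02. Of 20 genes of oxidative phosphorylation 0 passed, where 1.67% of all genes tested changed, with a median of -0.04.

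Neighbours of changed genes were compared with them. Within 1000 bases of each other, 28 pairs of genes with opposite strands and neighbouring starts held a changed gene, and in 3 of the 28 both had changed, against 1.67% of all genes tested, each time both higher: Hspe1 with Hspd1, Flcn with Gm16062 and Swt1 with Trmt1l. The last 4 genes were picked out once their values were known. Tecr, whose start neighbours that of Dnajb1, was at 0.02 ± 0.09, and Fubp1, next to Dnajb4, at 0.24 ± 0.08 (adjusted p = 0.104).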

How the data were processed

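The authors deposited log2 values of each gene in each of the 92 animals as a single table. The sums of the linear values, from 898071 to 1140761 per sample, show a per-million scale, which no header states. The submitters' processing notes name bcl2fastq, MultiQC, kallisto 0.50.1, edgeR and mm10 without roles. Depth per library is unknown, since no read counts were used here, and no interval from counts is given. Of 13456 lines, 15 repeats were removed, leaving 13441 genes, and 36 had no symbol.

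High and low groups were compared with limma 3.58.1 in R 4.3.3 (empirical Bayes with mean-variance trend, no covariate) over all genes but Hspa1a and Hspa1b, with Benjamini-Hochberg adjustment and a threshold of 0.05, and the script was tested on simulated data. In the 46 animals between, limma fitted the slope on the score. Library measures were compared by two-sided permutation tests with 100000 resamples. The animals and gene lists were chosen with earlier results of these data known. Named genes are the members of the chaperone lists, up to 6 changed members of every other list (or 2 with the smallest p), the 12 largest rises and 12 largest falls among genes with a mean of at least 1, and the 10 smallest p-values. Outside this rule, and with their values known, Fos, Egr1, Jun, Junb, Dbp, Irs1, Insr, Slc2a4, Cers1, Cers2, Fbxo32, Trim63, Csrp3, Myh7, Myh4, Hsp90b1, Herpud1, Pdia3, Atf4, Ddit3, Xbp1, Mt1, Fkbp5, Slfn5os, Tecr and Fubp1 were also named. The others outside it are marked in the text, and a few named by the rule are not reported here. The p-values measure the spread between these animals, whose litters and cohorts are not given in the sources used here. No 2 libraries were duplicates: the smallest root mean square difference of 4186 pairs was 0.521, with a median of 0.66. Positions are from GENCODE M21 and start regions from RefSeq (GRCm38.p6). In 17 planned and 3 added alternatives, group size, score, covariates, scaling, filter and animals were varied.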

Additional observations from a re-analysis of the deposited data

How the results depend on the processing

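All 224 changed genes kept their sign in each of the 20 alternatives (with genes of a mean of at least 1 only, those still tested did), and 24 of the 78 named ones passed in every alternative. The score from Hspa1b alone picked the same animals as the main comparison, so that alternative could not differ. The count moved most with the animals. Without title numbers 10 to 33, 48 genes passed, 0.342% of genes tested higher and 0.0149% lower. The rule applied anew to the 81 other animals gave 84, 0.551% higher and 0.0744% lower, of which 78 were shared with the main comparison. The run of title numbers as a covariate gave 102, 0.618% higher and 0.141% lower, and title number itself left 0.313% lower. With 46 against 46 animals 146 passed, 0.759% higher and 0.327% lower. The lower genes were 0.871% with 31 against 31 and 0.878% with 10 against 10. The slope on the score over 92 animals gave 473, 1.95% higher and 1.57% lower. Among the changed genes, the share that was higher was 68.8% in the main comparison, 52% with 10 against 10, 55.4% for the slope, 81.4% with the run, 95.8% without the first title numbers and 88.1% with the rule applied anew. The count stayed within 1.5 times under the other alternatives, which were single-gene scores, marker, principal component, immediate-early and clock covariates, a pseudocount, the filter, quantile and median scaling, robust moderation and the removal of the extreme animals. Of the 224 genes, 56.2% passed again with the principal components and 63.4% with the marker scores. The slope in the 46 animals between passed for 2 genes in the main fit and in its 4 alternatives. Of 97 named genes that did not pass, 18 passed in at least 1 alternative. The cause of these shifts was not tested. No paired analysis was possible because the labels give 1 group and the replicate numbers only follow accession order. Depth limits the precision by an unknown amount.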

Other observations

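Other genes of the high group, singled out once their values were known, belong to none of the lists. Tmem33, a membrane protein of the endoplasmic reticulum, ran from 3.87 through a median of 4.28 to 4.59 in low and from 4.32 through 4.83 to 5.13 in high muscle. It rose by 0.52 ± 0.07 (adjusted p = 2.40e-07, limma), with 19 of 23 high animals above every low one, and by 0.43 without the 11 animals numbered 10 to 33 (adjusted p = 0.00138). Erfe, the hormone erythroferrone, which muscle also makes, had medians of -0.93 in low and 0.67 in high animals and rose by 1.37 ± 0.31 (adjusted p = 0.00778), though not without the 11 animals (0.90, adjusted p = 0.516). Glcci1, a glucocorticoid-induced gene, had medians of -0.76 and 0.86 and rose by 1.41 ± 0.37 (adjusted p = 0.0260), again not without the 11 animals (1.33, adjusted p = 0.378). Both lie at low levels where single animals spread widely.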
